A study of Rattus norvegicus with 8 samples.

Results

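S-phase callus cells are the rat fracture callus cells in which transcripts of 5 DNA replication genes were abundant and those of 7 genes of mitosis were not. They were taken from 8 single-cell libraries by 3 thresholds. A cell barcode had at least 5000 unique molecular identifiers (UMIs, each counted as a transcript). The summed UMIs of Pcna, Mcm6, Rrm2, Gmnn and Ccne2 made up at least 0.1% of its UMIs. The summed UMIs of Cenpf, Ccnb1, Ube2c, Cdc20, Top2a, Tpx2 and Prc1 stayed under 0.1%. Of 69624 barcodes, 65208 had at least 5000 UMIs, and 2921 of those (4.48%) were S-phase cells. They are set against the other cells with at least 5000 UMIs of the same library, called other cells. Those include 9386 cells at or over the mitotic threshold, called mitotic cells, which also serve as a comparison of their own.

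The study took callus from Sprague Dawley rats after a closed fracture of the femur, which had been fixed with a nail in the marrow cavity, of steel or containing magnesium. Zoledronate, a bisphosphonate that slows bone resorption, was given at 0.3 mg/kg each week during the 12 weeks that preceded the fracture. Callus cells were freed with collagenase A over 4 hours and kept on a dish for 24 hours before capture with 10x Genomics V3 chemistry, so the S phase described is that of callus cells after a day in culture. The groups were rats given zoledronate and CGRP (calcitonin gene-related peptide, a neuropeptide), rats given zoledronate and magnesium, rats given zoledronate, and control rats labelled untreated, each at weeks 12 and 4 after fracture. Each group is 1 library with no replicate, and the labels give neither the number of rats behind it nor the dose of CGRP. The 8 libraries therefore serve as replicates of the contrasts between classes of cells, while differences between treatments carry no test.

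Before a cell divides it copies its genome. In G1 the MCM helicase is loaded on origins of replication by the origin recognition complex with Cdc6 and Cdt1, and geminin (Gmnn) later blocks reloading. E2F factors, released from the retinoblastoma protein by cyclin and CDK activity, switch on the genes of this machinery. Pcna is the clamp that holds DNA polymerases on the template, Rrm2 is the small subunit of ribonucleotide reductase, and Ccne2 is a cyclin E. In a healing callus, stromal and cartilage precursors divide before they lay down matrix.

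Promoters of replication genes often carry E2F sites, and those of late cell-cycle genes a CHR element. RefSeq promoter windows of build GRCr8, from 250 bases before to 50 after each gene's start, were searched on both strands for the E2F-type letters TTTCCCGC, TTTCGCGC, TTTGCCGC and TTTGGCGC, whose matches may overlap, and for the CHR letters TTTGAA. Mcm6 (chr13:42404303-42404602, minus strand), a gene of the rule, and Mcm2 (chr4:122918045-122918344, minus strand) and Hells (chr1:246113879-246114178, plus strand), which are described below, are shown with the E2F-type letters in capitals. Ccnb2 (chr8:79981609-79981908, minus strand), a cyclin of mitosis, is shown with the CHR letters in capitals. The window of Mcm2 also holds 2 matches of the CHR letters, which are left in lower case. Each line runs 5′ to 3′ on the strand of the gene.
Mcm6: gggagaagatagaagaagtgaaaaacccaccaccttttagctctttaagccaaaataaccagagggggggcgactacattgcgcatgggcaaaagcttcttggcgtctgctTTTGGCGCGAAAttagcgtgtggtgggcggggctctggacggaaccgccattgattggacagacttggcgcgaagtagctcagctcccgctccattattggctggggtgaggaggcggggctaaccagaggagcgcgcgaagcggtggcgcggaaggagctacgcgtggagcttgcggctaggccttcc
Mcm2: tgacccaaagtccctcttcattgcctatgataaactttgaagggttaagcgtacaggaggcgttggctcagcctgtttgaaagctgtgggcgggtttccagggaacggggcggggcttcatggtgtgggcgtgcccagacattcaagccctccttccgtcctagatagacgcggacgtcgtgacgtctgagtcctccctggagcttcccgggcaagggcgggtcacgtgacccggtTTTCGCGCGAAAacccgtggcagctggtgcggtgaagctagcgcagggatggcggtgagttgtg
Hells: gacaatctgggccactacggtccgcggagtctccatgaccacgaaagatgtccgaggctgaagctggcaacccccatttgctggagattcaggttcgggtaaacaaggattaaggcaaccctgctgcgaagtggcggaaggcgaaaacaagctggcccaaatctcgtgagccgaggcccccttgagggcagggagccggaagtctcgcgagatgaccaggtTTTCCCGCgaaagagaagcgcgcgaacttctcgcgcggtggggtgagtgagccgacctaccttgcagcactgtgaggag
Ccnb2: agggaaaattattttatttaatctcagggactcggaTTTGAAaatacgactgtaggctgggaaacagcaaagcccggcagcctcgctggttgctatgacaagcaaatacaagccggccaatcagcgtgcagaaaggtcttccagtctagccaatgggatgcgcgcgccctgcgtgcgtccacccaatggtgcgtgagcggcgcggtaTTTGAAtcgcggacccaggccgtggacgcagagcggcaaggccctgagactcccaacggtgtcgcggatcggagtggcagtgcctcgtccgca
E2F-type letters stood in 2.14% of all 33469 windows. They stood in 7 of the 13 licensing and helicase genes with a window, 10 of 24 genes of the polymerases and the fork, 5 of 12 of chromatin assembly, 6 of 16 of checkpoint and repair, and 1 of 27 of mitosis. The CHR letters stood in 18.3% of all windows, in 4 of the 13 licensing genes, 1 of the 24 fork genes, 4 of the 12 chromatin assembly genes, 5 of the 7 histone genes and 20 of the 27 mitosis genes. Of the 12 fibrous matrix windows, 0 held E2F-type letters. These are matches of letters and not mapped binding sites.

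The 5 genes that chose the cells are given as a description. Over the 8 libraries Pcna had 313 to 403 CPM (UMI counts of a gene scaled to an equal total in each class and library) in S-phase cells, against 48.1 to 87.9 CPM in other cells. Rrm2 reached 374 to 472 CPM in S-phase cells, against 26.4 to 188 CPM in other cells, and Ccne2 119.6 to 153 CPM, against 5.17 to 17.5 CPM. Mcm6 had 196 to 232 CPM in S-phase cells, against 11.9 to 48.1 CPM in other cells, and Gmnn 183 to 211 CPM, against 11.1 to 51.8 CPM. All 5 genes were detected together in 2469 of the 2921 cells (84.5%), and a single gene reached the threshold by itself in 16. The cells are a range and not a separate type. The summed share of UMIs lay between 0.10% and 0.11% in 557 S-phase cells, just inside the threshold, and between 0.09% and 0.10% in 583 cells just outside it.

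**Figure D1:**
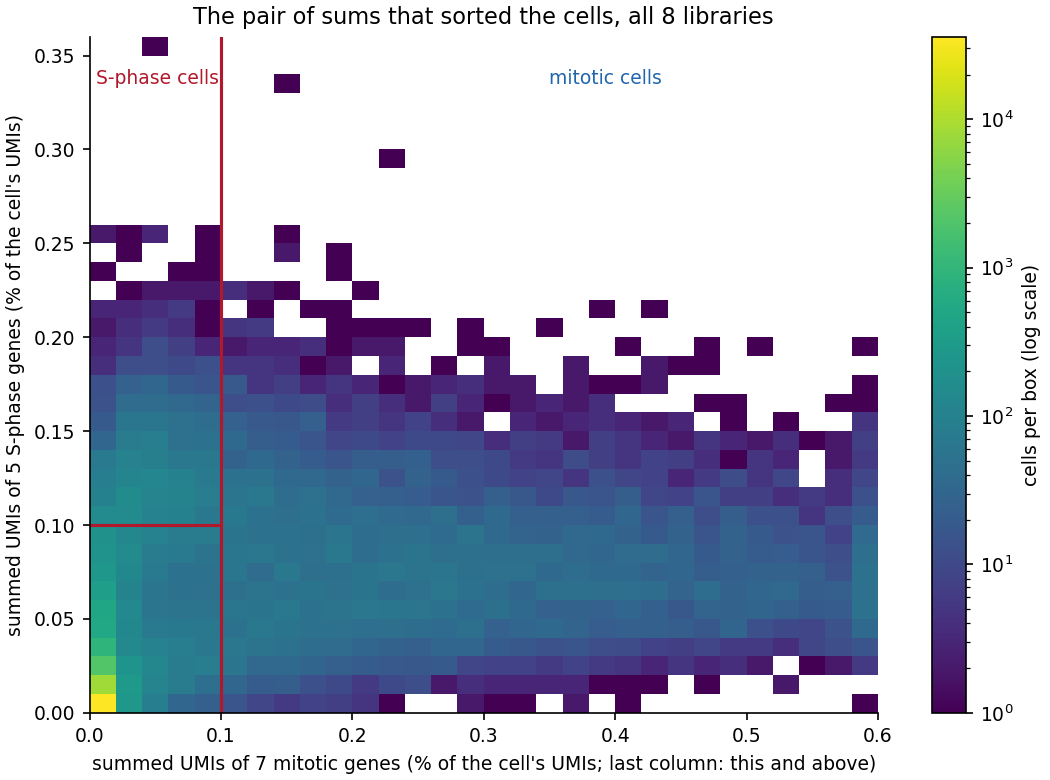
Each box counts cells of all 8 libraries by the summed UMIs of the 7 mitotic genes (x axis, % of the cell's UMIs) and of the 5 S-phase genes (y axis, % of the cell's UMIs); colour gives cells per box on a log scale, and lines mark the thresholds. Cells continue across the S-phase threshold without a gap, with 557 just inside and 583 just outside it.

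S-phase markers that the rule did not use are given as a description. Genes of the cell cycle differ with the rule genes by construction, so they are no independent check of the label. All 18 were higher in S-phase cells in 8 of 8 libraries, and none of the 18 had overlapping S-phase and other values. Their median log2 fold change was 2.52, and the highest was 3.22 for Clspn. Against mitotic cells 16 of the 18 were higher in 8 of 8 libraries, and the lowest was Rrm1 at -0.03. Overlap, here and for the lists below, was not counted over all genes. Markers of other cell types were scarce. Ptprc and Atp6v0d2 were at 0 in the S-phase cells of every library, and the summed endothelial markers reached at most 1.12 CPM in S-phase and 1.11 CPM in other cells. The macrophage and osteoclast list summed to 64.7 to 155 CPM in S-phase cells, against 69.6 to 179 CPM in other cells, of which Ctsk made up 47.4 to 132 CPM in S-phase cells. None of the 9 markers in the lymphoid, mast and erythroid list is in the tables. Il1rl1, also chosen as a lymphoid and mast marker, was detected. It was called higher in S-phase cells and is given below with the chemokine genes.

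Total UMIs per library ran from 141264724 to 160177900, and the median S-phase cell had 1.02 to 1.21 times the UMIs of the median other cell. Pairs of libraries shared 13 to 31 barcodes, and 0 shared barcodes were S-phase cells in more than 1 library. Free RNA in the droplets can place S-phase transcripts in other cells, and no class of cells known to lack them was at hand as a background.

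S-phase cells were scarcest in the zoledronate library of week 12. At week 12 they made up 1.64% (1.39 to 1.92, 152 of 9278 cells) with zoledronate, against 6.43% (5.89 to 7.0, 500 of 7777 cells) in the control. Brackets hold 95% Clopper-Pearson intervals. At week 4 they made up 4.97% (4.49 to 5.48, 380 of 7652 cells) with zoledronate, against 6.86% (6.27 to 7.48, 467 of 6809 cells) in the control. The zoledronate share was 0.255 times the control share at week 12 and 0.724 times at week 4, and the intervals of the shares overlapped at neither week. With the S-phase threshold at 0.15% those of week 4 overlapped, with a log2 ratio of -0.34 (-0.75 to 0.07), and those of week 12 did not. The intervals cover counting error only, and with 1 library a group the difference has no replicate check.

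With CGRP added to zoledronate, S-phase cells made up 2.50% (2.21 to 2.82, 259 of 10370 cells) at week 12, against 1.64% with zoledronate. At week 4 they made up 6.74% (6.2 to 7.31, 543 of 8055 cells), against 4.97% with zoledronate. With magnesium added they made up 3.24% (2.86 to 3.65, 259 of 7999 cells) at week 12, against 1.64% with zoledronate. At week 4 they made up 4.97% (4.48 to 5.49, 361 of 7268 cells), against 4.97% with zoledronate, a log2 ratio of the shares of 0.00 (-0.20 to 0.20). That week 4 pair was the only one of the 4 whose intervals overlapped at the 0.1% threshold. With the threshold at 0.15% the intervals of all 4 pairs overlapped, and the log2 ratio for CGRP at week 12 was 0.13 (-0.47 to 0.72), against 0.61 at 0.1%. For magnesium at week 12 it was 0.76 (0.19 to 1.33), an interval that leaves out 0, against 0.98 at 0.1%. At week 4 it was 0.24 (-0.16 to 0.64) for CGRP and -0.27 (-0.72 to 0.18) for magnesium. The zoledronate libraries enter all 3 treatment comparisons, which are therefore not independent.

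Between weeks, the log2 ratio of the share at week 12 over week 4 was -1.60 (-1.87 to -1.33) with zoledronate and -1.43 (-1.64 to -1.22) with zoledronate and CGRP. It was -0.62 (-0.84 to -0.39) with zoledronate and magnesium, and -0.09 (-0.27 to 0.08) in the control, where the interval includes 0. Without the threshold on mitotic genes the control ratio turned to 0.29. With every cell thinned to 5000 UMIs and the rule applied again, the shares at week 12 were 3.13% with zoledronate and CGRP, 3.59% with zoledronate and magnesium, 1.68% with zoledronate and 6.72% in the control. At week 4 they were 7.40%, 4.99%, 4.89% and 6.96% in the same order of treatments. Not every S-phase cell kept its label when thinned, and other cells gained it. In that order, 189 of 259, 172 of 259, 102 of 152 and 322 of 500 S-phase cells kept it at week 12. At week 4, 373 of 543, 249 of 361, 254 of 380 and 334 of 467 did.

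The balance between S-phase and mitotic cells also differed between libraries. At week 12 there were 59.1 S-phase cells per 100 mitotic cells with zoledronate, where 2.77% of cells were mitotic, against 28.0 in the control, where 23.0% were. At week 4 there were 21.2 with zoledronate and CGRP, where 31.8% were mitotic, against 42.0 with zoledronate. The rule keeps out cells over the mitotic threshold, and 2549 of the 5470 cells at or over the S-phase threshold were left out for it. They were 38.0% to 57.7% of such cells by library, most in the control of week 12.

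**Figure D2:**
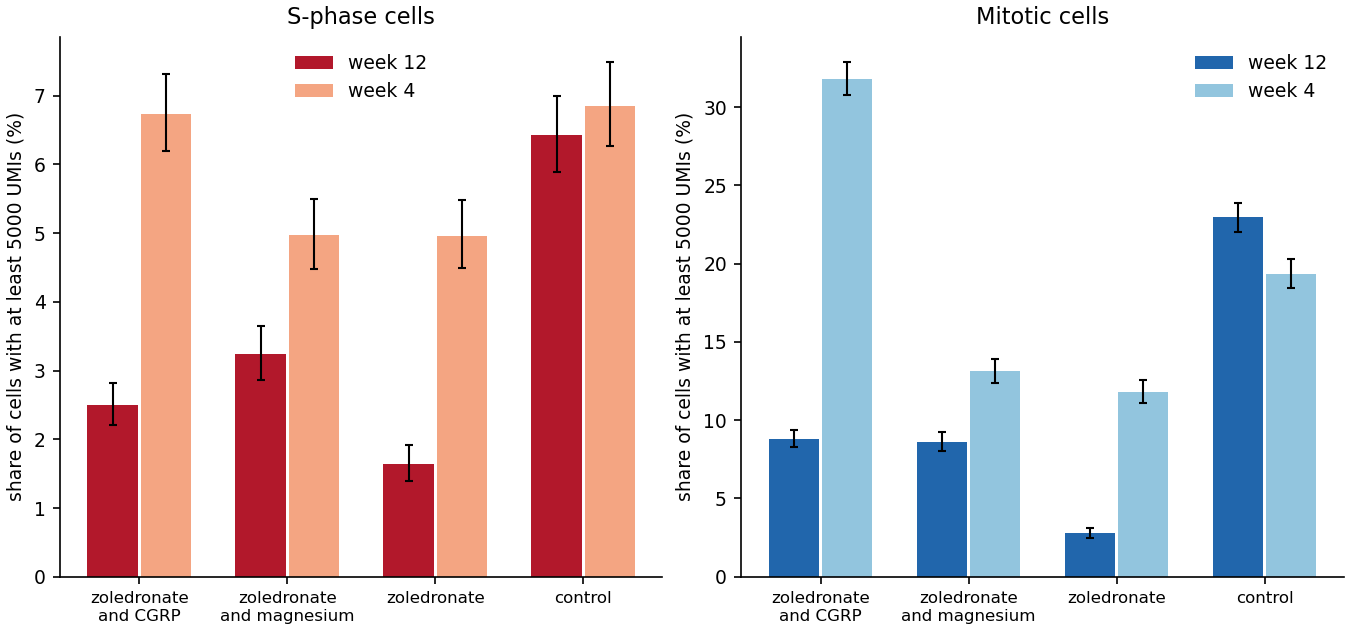
Share of cells with at least 5000 UMIs (y axis, %) that were S-phase or mitotic in each library, by treatment (x axis) and week (colour); bars start at 0 and error bars are 95% Clopper-Pearson intervals. At week 12 the S-phase share was 1.64% with zoledronate and 6.43% in the control.

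Expression was compared between S-phase and other cells in UMI counts summed by class and library, with edgeR's quasi-likelihood test and the library as a block. A gene was called at a Benjamini-Hochberg adjusted p under 0.05 and at least 1.5-fold. Of 10476 genes tested, 774 (7.39%) were higher in S-phase cells and 417 (3.98%) lower. The cells were chosen on genes of this same contrast, and genes of the cell cycle differ with them by construction. A call therefore describes how steadily a difference recurs over 8 libraries of different treatment and week, and is not independent evidence. Log2 fold changes below are given ± an SE derived from the test's F statistic in the fit of 8 libraries. CPM are given as the lowest, median and highest library.

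All 17 tested genes of origin licensing and the helicase were called higher, with a median log2 fold change of 2.39, beside -0.04 over all genes tested. Cdc6, which loads the helicase, had 38.2, 47.3 and 61.2 CPM in S-phase cells, against 1.86, 4.82 and 9.83 CPM in other cells (3.22 ± 0.163). Cdc45, which travels with the helicase, had 30.2, 46.5 and 52.7 CPM in S-phase cells, against 1.46, 5.26 and 8.51 CPM in other cells (3.11 ± 0.217). Mcm3, a helicase subunit, had 106, 119 and 134 CPM in S-phase cells, against 5.70, 16.4 and 27.9 CPM in other cells (2.80 ± 0.195). In each of these the S-phase values lay above every other-cell value, as they did for 16 of the 17 members. The exception was Dbf4, the activator of the Cdc7 kinase, with 16.0 to 21.9 CPM, against 4.2 to 16.6 CPM (0.83 ± 0.193).

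The 26 genes of the polymerases, the fork and the lagging strand were all called higher, with a median of 2.02. Clspn (claspin), which couples the fork to the checkpoint kinase, had 49.8, 62.9 and 72.1 CPM in S-phase cells, against 1.46, 6.64 and 11.6 CPM in other cells (3.22 ± 0.211). Dscc1, of a clamp loader that acts in sister chromatid cohesion, had 33.4 to 68.7 CPM in S-phase cells, against 2.93 to 14.5 CPM in other cells (2.71 ± 0.181). Fen1, the nuclease that trims Okazaki fragments, had 64.7 to 79.3 CPM, against 6.01 to 18.3 CPM (2.47 ± 0.137). The smallest difference was that of Rpa3, a subunit of the single-strand binding protein, with 132 to 188 CPM, against 68.6 to 101 CPM (0.94 ± 0.0590). Values did not overlap in 25 of the 26, and Rpa1, with 0.487 to 2.97 CPM, against 0.216 to 0.702 CPM (1.85 ± 0.235), was the exception.

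In nucleotide synthesis all 17 members were higher at an adjusted p under 0.05, and 13 of them by at least 1.5-fold (median 1.19). Tyms, thymidylate synthase, had 27.8, 32.3 and 35.5 CPM in S-phase cells, against 3.68, 6.69 and 12.9 CPM in other cells (2.11 ± 0.148). Rrm1, the large subunit of ribonucleotide reductase, had 172 to 199 CPM, against 19.5 to 97.0 CPM (1.78 ± 0.190). Genes of purine and pyrimidine synthesis that also serve RNA differed less, with log2 fold changes of 0.63 ± 0.0304 for Paics, 0.65 ± 0.0677 for Cad and 0.18 ± 0.0464 for Ctps1. Ctps1, Impdh2, Shmt1 and Shmt2 did not reach 1.5-fold.

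Genes that rebuild chromatin behind the fork were called higher in 12 of 13 cases (median 1.75). Hells, a chromatin remodeller needed for DNA methylation, had 72.2, 82.6 and 90.4 CPM in S-phase cells, against 5.31, 12.6 and 17.9 CPM in other cells (2.74 ± 0.136). Chaf1b, a subunit of the histone chaperone CAF-1, had 25.2 to 33.3 CPM, against 1.73 to 7.80 CPM (2.65 ± 0.194). Atad2, a chromatin ATPase, had 124 to 169.8 CPM, against 10.7 to 35.1 CPM (2.61 ± 0.171). Uhrf1 and Dnmt1, which copy methylation to the new strand, had log2 fold changes of 2.68 ± 0.193 and 2.01 ± 0.108.

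Histone genes were mostly higher, with exceptions. Most replication-dependent histone transcripts end in a stem-loop and carry no poly(A) tail, and near-identical copies can share reads, so the assignment of single members is uncertain. Of 13 tested, 9 were called higher and 1 lower (median 1.18), beside 7.39% and 3.98% of all genes. At an adjusted p under 0.05 and any fold, 9 were higher and 3 lower, beside 24.8% and 27.2% of all genes. Hist1h1b, a linker histone, had 24.9, 47.9 and 90.2 CPM in S-phase cells, against 1.01, 6.25 and 21.2 CPM in other cells (2.74 ± 0.233). Hist1h2bh, a core histone, had 102, 133 and 162 CPM in S-phase cells, against 189.6, 315 and 488 CPM in other cells (-1.28 ± 0.0861). Its S-phase values all lay below its other-cell values, and the 4 other-cell values of week 12 stood above the 4 of week 4. Slbp, which binds the stem-loop, had 136 to 204 CPM, against 37.2 to 60.3 CPM (1.75 ± 0.0657).

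Regulators of the G1/S switch were called higher in 11 of 12 cases (median 1.83). Ccne1, a cyclin E, had 91.6, 111 and 124 CPM in S-phase cells, against 8.43, 18.8 and 31.3 CPM in other cells (2.53 ± 0.129). E2f1, an activating E2F, had 54.8 to 89.9 CPM, against 5.32 to 18.0 CPM (2.56 ± 0.174), and E2f7, a repressing E2F, 3.98 to 6.31 CPM, against 0.15 to 1.48 CPM (2.56 ± 0.229). Mybl2, a cell-cycle transcription factor, had 59.5 to 76.3 CPM, against 2.99 to 19.2 CPM (2.62 ± 0.246). The retinoblastoma gene Rb1 was not called, with 13.4 to 25.9 CPM, against 12.0 to 17.0 CPM (0.32 ± 0.0600), and its values overlapped.

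Checkpoint and repair genes were called higher in 14 of 15 cases (median 2.05). Exo1, an exonuclease of mismatch repair, had 18.2, 21.2 and 22 CPM in S-phase cells, against 1.02, 2.33 and 4.36 CPM in other cells (2.96 ± 0.172). Its values did not overlap between classes. Ung, which removes uracil from DNA, had 51.5 to 71.2 CPM, against 8.63 to 15.3 CPM (2.19 ± 0.0655). Atrip, the partner of the ATR kinase, was not called, with 3.98 to 7.06 CPM, against 4.13 to 5.01 CPM (0.24 ± 0.101).

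**Figure D3:**
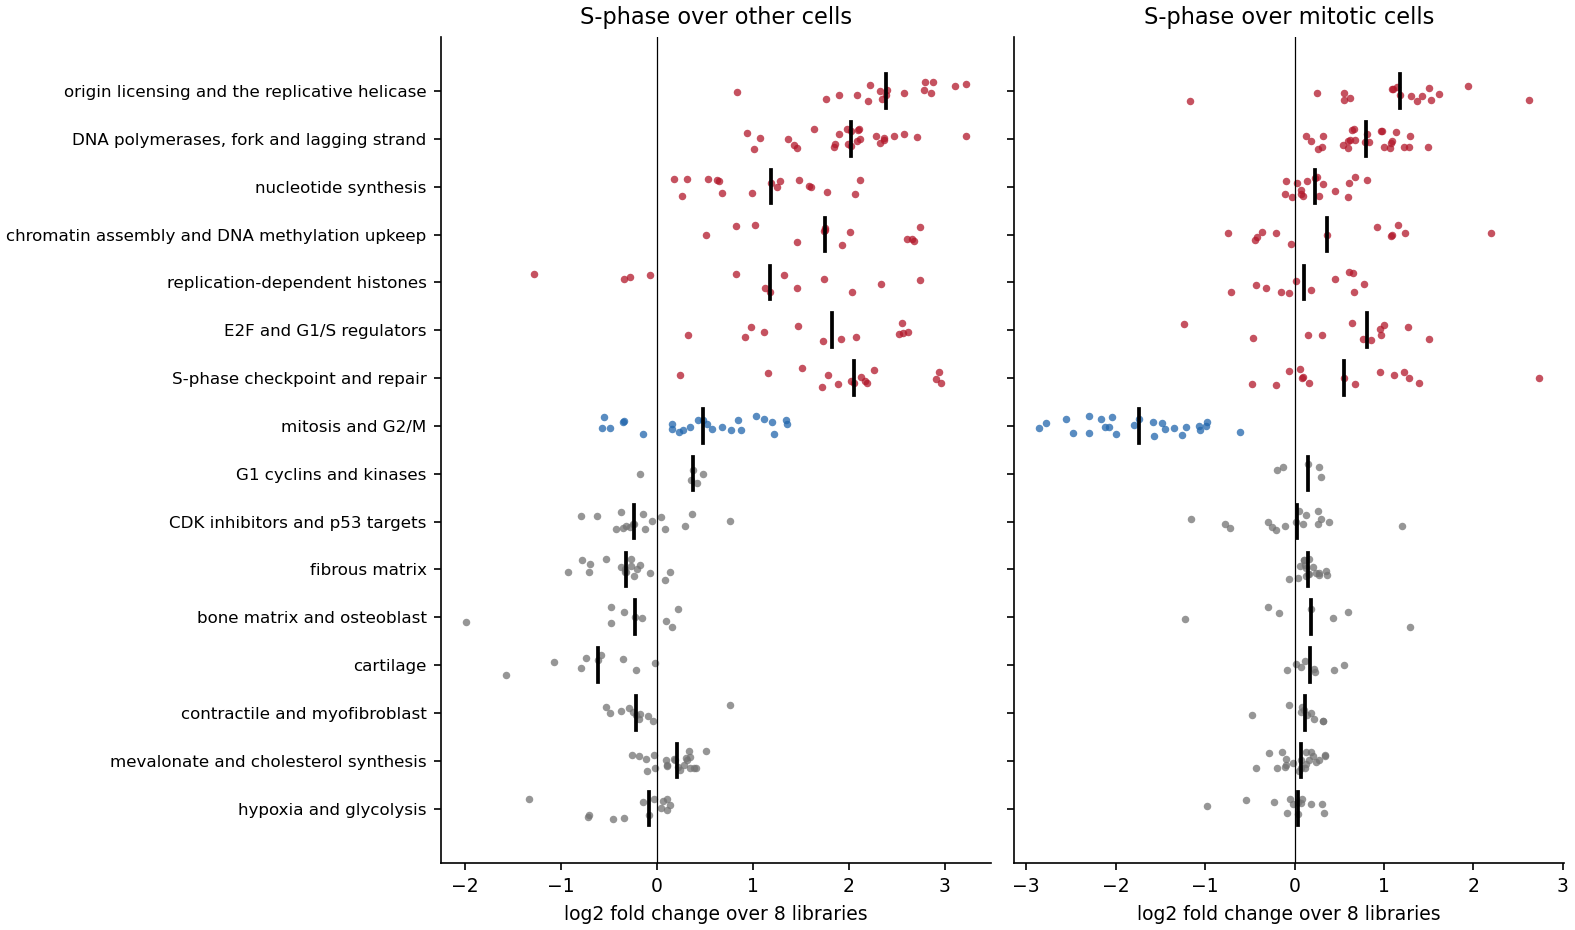
Each point is a gene, placed by its log2 fold change over 8 libraries (x axis), S-phase over other cells in one panel and S-phase over mitotic cells in the other, with its list on the y axis and the list median as a bar; red marks lists of replication, blue mitosis and grey the rest. The licensing median was 2.39 against other cells and 1.18 against mitotic cells, and the mitosis median 0.48 and -1.73.

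The mitosis genes lay between the neighbouring classes. The median share of a cell's UMIs that came from the 25 genes was 0.120% to 0.135% by library in S-phase cells, against 0.343% to 0.420% in mitotic cells and 0.012% to 0.041% in other cells. Against other cells 10 of 25 were called higher and 0 lower (median 0.48). Against other cells without the mitotic ones, 24 were, with a median of 2.73. Mki67, the proliferation antigen, had 144, 168 and 186 CPM in S-phase cells, against 12.8, 70.4 and 148 CPM in other cells (1.35 ± 0.262). Its values overlapped, and its lowest other-cell value was that of the zoledronate library of week 12.

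G1 cyclins and kinases differed little. None of 5 reached 1.5-fold, and 4 were higher and 1 lower at an adjusted p under 0.05, beside 24.8% and 27.2% of all genes. Cdk4, the kinase of cyclin D, had 354 to 392 CPM, against 235 to 288 CPM (0.48 ± 0.0270), with no overlap. Ccnd1, cyclin D1, had 61.4, 147 and 312 CPM in S-phase cells, against 39.2, 96.1 and 254 CPM in other cells (0.38 ± 0.124), and ranged more between libraries than between classes. Of 17 CDK inhibitors and p53 targets, Cdkn2c (0.76 ± 0.155) was called higher, and Cdkn2b (-0.79 ± 0.0700) and Cdkn1c (-0.62 ± 0.235) lower, beside 7.39% and 3.98% of all genes. At any fold 3 were higher and 11 lower (median -0.24). The lower count by 1.5-fold was 1 with the threshold at 0.15%, with thinned cells, with DESeq2, and with any library left out other than zoledronate of week 12 or zoledronate and CGRP of week 4. Cdkn1a, the p21 gene, had 60.0 to 130.4 CPM, against 50.9 to 115 CPM (0.08 ± 0.0358) and was not called.

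Matrix genes were lower in S-phase cells by small amounts. Of 17 fibrous matrix genes, 15 were lower at an adjusted p under 0.05 and 4 by at least 1.5-fold (median -0.32). Over all genes these shares were 27.2% and 3.98%. In 8 of 8 libraries 14 of the 17 were lower, a count not made over all genes. Col1a1, the main collagen of bone and scar, had 11389, 15223 and 22390.4 CPM in S-phase cells, against 13275, 19756 and 24028 CPM in other cells (-0.33 ± 0.0551). The 4 called were Thbs2 (-0.93 ± 0.104), Lum (-0.77 ± 0.131), Dcn (-0.70 ± 0.0549) and Postn (-0.70 ± 0.0671), of thrombospondin 2, lumican, decorin and periostin. Thbs2 had 87.5, 724 and 1500.5 CPM in S-phase cells, against 162, 1637 and 2208 CPM in other cells (-0.93 ± 0.104). Its ranges overlap, and the S-phase value was lower than the other-cell value in each of the 8 libraries.

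Cartilage genes were lower at an adjusted p under 0.05 in 8 of 9 cases and by 1.5-fold in 5 (median -0.61), beside 27.2% and 3.98% of all genes. With the S-phase threshold at 0.15%, 5 were lower and 0 by 1.5-fold. Sox9, the regulator of cartilage fate, had 32.8, 59.4 and 92.9 CPM in S-phase cells, against 55.0, 84.0 and 107 CPM in other cells (-0.58 ± 0.0625). Comp (-0.74 ± 0.112) and Cilp (-0.79 ± 0.0937), cartilage matrix proteins, and Prg4 (-1.57 ± 0.281), lubricin, were among those called. Col2a1, the defining collagen of cartilage, reached at most 0.0938 CPM in S-phase and 0.0776 CPM in other cells. Of 9 bone genes tested, 5 were lower at an adjusted p under 0.05, beside 27.2% of all genes. Ibsp, bone sialoprotein, alone was lower by 1.5-fold, beside 3.98% of all genes, with 0 to 1.63 CPM, against 0.194 to 8.30 CPM (-1.99 ± 0.187). Sp7 and Dmp1, of osteoblasts and osteocytes, were at 0 in S-phase cells of every library. Of 11 contractile genes 7 were lower at an adjusted p under 0.05 and none by 1.5-fold (median -0.21), beside the same 27.2% and 3.98% of all genes. By 1.5-fold 2 were lower with the threshold at 0.15%, and 2 with mitotic cells left out of the others. Acta2, smooth muscle actin, had 1601 to 4119 CPM, against 1612 to 4209 CPM (-0.17 ± 0.0670).

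Other lists held single members that differed. Of 11 chemokine and inflammation genes, Ccl2, Cxcl10 and Il1rl1 were called higher and Il33 lower, beside 7.39% and 3.98% of all genes. The higher count was 2 with RLE factors, with mitotic cells left out of the others, or without the zoledronate library of week 12, and 1 without the CGRP or the magnesium library of week 12. No gene was called lower without the CGRP library of week 12 or with the threshold at 0.15%. Ccl2, which attracts monocytes, had 14.0, 34.9 and 1769 CPM in S-phase cells, against 8.47, 37.9 and 797 CPM in other cells (0.65 ± 0.158), with its highest S-phase value in the zoledronate and magnesium library of week 12. Of 13 genes of hypoxia and glycolysis 3 were called lower, beside 3.98% of all genes. They were Ankrd37 with 2.68 to 4.37 CPM, against 5.90 to 11.6 CPM (-1.33 ± 0.0912), Bnip3 (-0.71 ± 0.0730) and Ndrg1 (-0.71 ± 0.0874). In the mevalonate pathway 14 of 22 were higher at an adjusted p under 0.05, beside 24.8% of all genes, and none by 1.5-fold. That count was 7 with the threshold at 0.15% and 10 with thinned cells. The list was led by Idi1 with 146 to 214 CPM, against 91.8 to 154 CPM (0.51 ± 0.0453). Egr2 was the 1 of 18 immediate early genes called, lower, beside 3.98% of all genes, with 1.35 to 10.1 CPM, against 2.72 to 16.4 CPM (-0.83 ± 0.0850). None of 9 genes of the insulin-like growth factor system was called.

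Among genes outside the lists, 10 were named by rule as lower in S-phase cells. Ddit4, an inhibitor of mTORC1, had 7.70, 13.1 and 17.9 CPM in S-phase cells, against 13.9, 40.9 and 56.2 CPM in other cells (-1.52 ± 0.0923). Tob1, an antiproliferative protein, had 18.3, 23.6 and 29.7 CPM in S-phase cells, against 38.7, 44.3 and 52.5 CPM in other cells (-0.96 ± 0.0621). Mgmt, which repairs alkylated guanine, had 22.6, 29.2 and 38.2 CPM in S-phase cells, against 43.9, 61.4 and 68.1 CPM in other cells (-0.99 ± 0.0495). Tob1 and Mgmt had no overlap between classes, and Ddit4 did. G0s2, an inhibitor of lipolysis, had 1.87, 5.89 and 118 CPM in S-phase cells, against 4.2, 13.9 and 588 CPM in other cells (-1.85 ± 0.165), with overlapping ranges. The others, with log2 fold changes of -1.07 to -0.88, were S100b, C1qtnf3, Tmem150a, Dbp, Pnrc1 and Mylk. Upward, Zfp367, a zinc finger protein, had 37.9 to 70.0 CPM, against 5.49 to 13.1 CPM (2.62 ± 0.141).

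**Figure D4:**
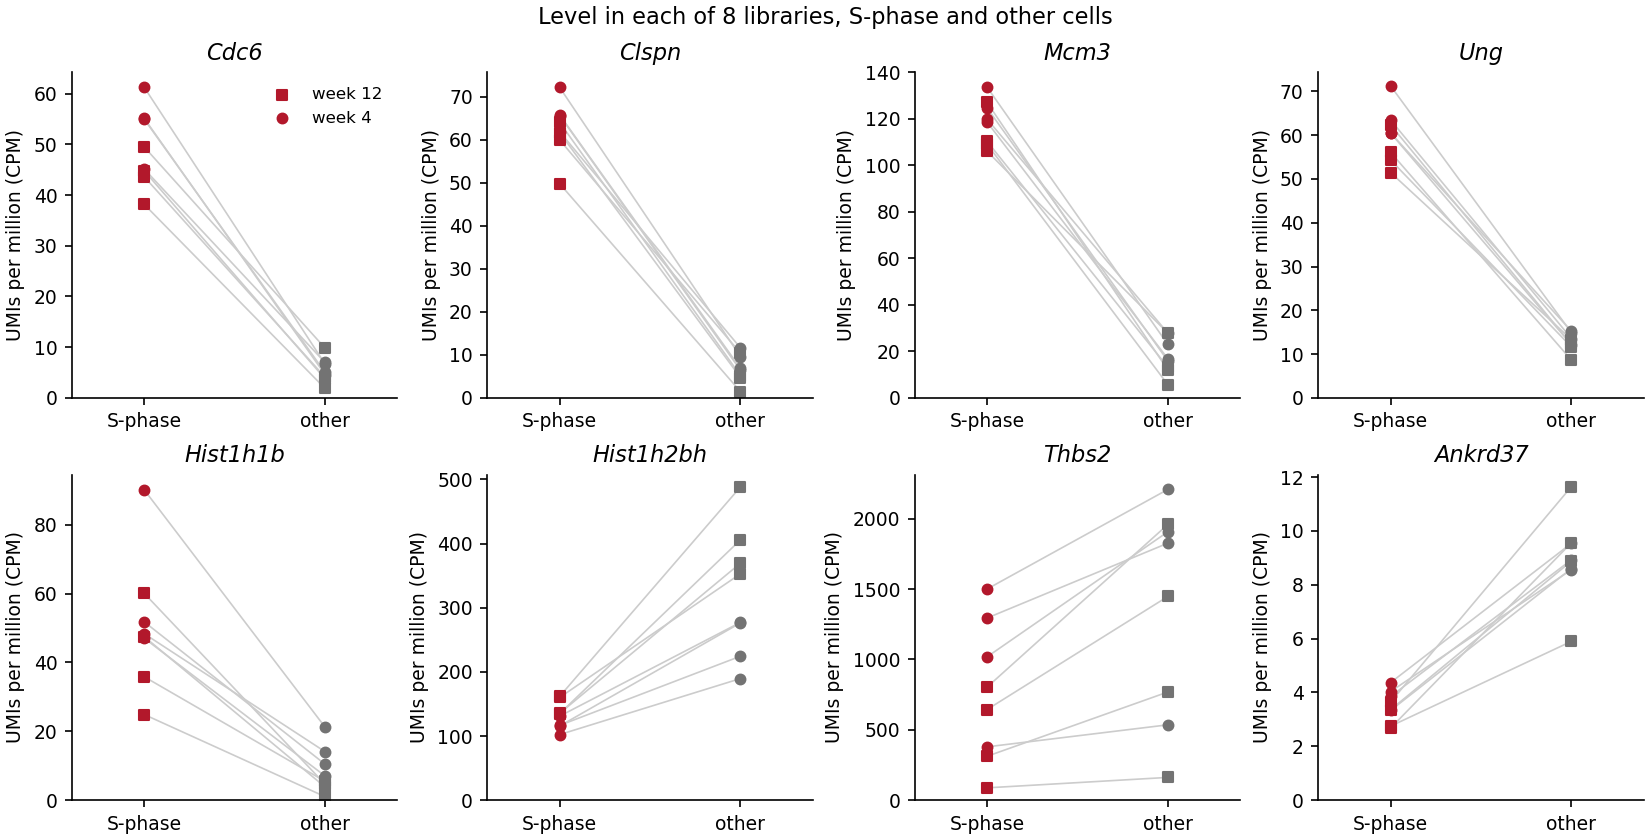
CPM (y axis, from 0) of 8 genes described in the text, in S-phase and other cells (x axis); each point is a library, squares week 12 and circles week 4, and lines join the classes of a library. Cdc6 lay at 38.2 to 61.2 CPM in S-phase cells and 1.86 to 9.83 CPM in other cells, without overlap.

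Against mitotic cells, 292 of 9099 genes (3.21%) were called higher in S-phase cells and 329 (3.62%) lower, again in a contrast the rule used. Of the licensing genes 13 of 17 were called higher (median 1.18), and of the fork genes 20 of 26 (median 0.80). In nucleotide synthesis 4 of 17 were (median 0.23). Of the chromatin assembly genes 6 of 13 were called higher and 1 lower (median 0.37), and at any fold 7 were higher and 5 lower. Of the histone genes 4 of 12 were called higher and 1 lower (median 0.10). The summed chromatin assembly genes had a median of 3174 CPM in S-phase cells, against 3873 CPM in mitotic cells. For the summed G1/S regulators it was 594 CPM, against 600 CPM. The 25 mitosis genes were all called lower (median -1.73).

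Of the genes named by rule, Ung was highest relative to mitotic cells, with 51.5, 60.5 and 71.2 CPM in S-phase cells, against 5.63, 8.36 and 13.6 CPM in mitotic cells (2.73 ± 0.0969). Cdc6 had 38.2 to 61.2 CPM in S-phase cells, against 5.58 to 14.5 CPM in mitotic cells (2.62 ± 0.109), and Mcm2, a helicase subunit, 74.6 to 94.0 CPM, against 21.9 to 32.0 CPM (1.61 ± 0.0482). In these 3 genes the classes did not overlap. Rrm1 had overlapping values of 172 to 199 CPM, against 168 to 213 CPM (-0.03 ± 0.0240), and Rrm2 of the rule, given as a description, 374 to 472 CPM in S-phase cells, against 431 to 546 CPM in mitotic cells, which also overlapped. The S-phase value of Rrm2 was the lower one in 7 of 8 libraries, and its direction turned with the S-phase threshold at 0.15%, where all 5 of the rule's S-phase genes stood higher. Dbf4 was the licensing gene called lower, with 16.0 to 21.9 CPM, against 38.5 to 46.4 CPM (-1.16 ± 0.0577), and cyclin A2 (Ccna2) had 63.8 to 83.1 CPM, against 144 to 209 CPM (-1.24 ± 0.0352).

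Downward, Sapcd2 had 5.04, 6.73 and 9.29 CPM in S-phase cells, against 58.2, 62.9 and 67.3 CPM in mitotic cells (-3.18 ± 0.0717). Plk1, the polo kinase of mitotic entry, had 4.38 to 8.36 CPM, against 37.4 to 55.4 CPM (-2.86 ± 0.0787), Aurka, the spindle pole kinase, 13.1 to 26.6 CPM, against 113 to 145 CPM (-2.78 ± 0.0579), and Ccnb2, whose promoter is printed above, 21.9 to 43.1 CPM, against 137 to 181 CPM (-2.48 ± 0.105). None of these 4 overlapped between classes. The other 8 named by rule as lower, Pimreg, Aspm, Kif20a, Arl6ip1, Cenpa, Dlgap5, Kif23 and Fam83d, had log2 fold changes of -2.82 to -2.12. Fibrous matrix genes stood slightly higher than in mitotic cells, 14 of 17 at an adjusted p under 0.05 and 0 by 1.5-fold (median 0.15), beside 27.1% of all genes at any fold.

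At matched depth, more genes were detected in S-phase cells. Thinned to 5000 UMIs, the median S-phase cell held 90.3 ± 25.4 more genes than the median other cell (SD, n = 8 libraries), higher in 8 of 8 libraries (exact sign-flip test, two-sided, p = 0.0078125, the smallest that 8 libraries allow). Against the median mitotic cell the difference was -42.25 ± 9.15 genes, lower in 8 of 8 libraries.

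The difference between S-phase and other cells was tested for a change between weeks, in the same counts with an interaction term in edgeR's quasi-likelihood test. Of 10476 genes, 6 (0.0573%) had a higher S-phase difference at week 12 and 18 (0.172%) a lower one at a Benjamini-Hochberg adjusted p under 0.05. At least 1.5-fold were 2 (0.0191%) and 7 (0.0668%). No replication or mitosis list had a member among them. The median log2 interaction was nonetheless 0.81 for the mitosis genes and 0.15 to 0.56 for the replication lists, beside -0.01 over all genes. Of the 25 mitosis genes, 0 to 11 were called higher by 1.5-fold when each library was left out. Of the fibrous matrix genes Thbs2, Sparc and Col5a2 were lower. Ifi27l2b, of an interferon-inducible family, had a log2 difference of -0.74 at week 12 and -0.21 at week 4 (interaction -0.59 ± 0.0510, adjusted p = 0.000729). Pttg1 (securin, an inhibitor of sister chromatid separation) had a log2 difference of 0.65 at week 12 and -0.83 at week 4 (interaction 1.38 ± 0.230, adjusted p = 0.0499). The share of mitotic cells among other cells also differed between weeks, and its part in these differences was not tested. The count rests on single libraries: 24 genes were called in all, 493 without the control of week 12, and 1 without the control of week 4. DESeq2 called 264, and 1378 genes had an unadjusted p under 0.05 in edgeR's test.

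Between treatments, S-phase cells were compared within each week as values with no test, on the scale of log2(CPM + 1). Genes with a mean of at least 50 CPM and 50 UMIs at both weeks were counted where they differed by at least 1.5-fold the same way at both weeks. With zoledronate over the control, 7 genes (0.291%) were higher and 1 (0.0415%) lower of 2408. Postn, a matrix protein of healing periosteum, had 297 CPM at week 12 and 228 CPM at week 4 in S-phase cells with zoledronate, against 157 and 73.1 CPM in the control, log2 ratios of 0.91 and 1.63. In other cells the ratios were 1.22 and 1.68. Fos, an immediate early transcription factor, was the gene that was lower. In S-phase cells it had 43.5 CPM at week 12 and 62.6 CPM at week 4 with zoledronate, against 107 and 94.6 CPM in the control. Its log2 ratios were -1.27 and -0.59 in S-phase cells, and -0.75 and -0.39 in other cells. Genes at least 1.5-fold apart in S-phase cells numbered 171 at week 12 and 41 at week 4. Of these, 167 and 41 differed the same way in other cells by any amount, and 135 and 25 by at least 1.5-fold.

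The median log2 ratio of the licensing genes, zoledronate over control at week 12, was 0.04 in S-phase cells and -1.47 in other cells. That of the mitosis genes was -0.18 in S-phase cells and -2.36 in other cells. The rule holds the S-phase genes of its members above a set level in every library, and their mitotic genes below one, so these small ratios are no independent finding. The fibrous matrix median was 0.75 in S-phase cells and 0.74 in other cells at week 12, with 16 of 17 genes higher with zoledronate than in the control in S-phase cells. At week 4 it was -0.13 in S-phase cells and 0.03 in other cells, with 6 of them higher with zoledronate in S-phase cells. Among all 2408 genes counted, 923 were higher with zoledronate in S-phase cells at week 12 and 1389 at week 4.

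With CGRP and zoledronate over zoledronate, 11 genes (0.457%) were higher and 30 (1.25%) lower at both weeks. Ccnd1, which promotes passage through G1, had 197 CPM at week 12 and 236 CPM at week 4 in S-phase cells with zoledronate and CGRP, against 69.0 and 80.9 CPM with zoledronate (1.5 and 1.53). Ramp3, a partner of receptors of the CGRP family, had log2 ratios of 1.78 and 1.44 at weeks 12 and 4, and 1.52 and 1.71 in other cells. Hmcn1, hemicentin 1 of the extracellular matrix, ranked first among the lower genes, at -2.60 and -1.99. In other cells the ratios were -1.45 and -2.13 for Hmcn1, and 1.23 and 1.74 for Ccnd1. Genes at least 1.5-fold apart in S-phase cells numbered 155 at week 12 and 115 at week 4. Of these, 151 and 115 differed the same way in other cells by any amount, and 111 and 101 by at least 1.5-fold.

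With magnesium and zoledronate over zoledronate, 3 genes (0.124%) were higher and 3 (0.124%) lower at both weeks. Igf1, a growth factor of bone and cartilage, had 93.3 CPM at week 12 and 24.5 CPM at week 4 in S-phase cells with zoledronate and magnesium, against 195 and 100.4 CPM with zoledronate (-1.05 and -1.99). Spp1, osteopontin, had 305 CPM at week 12 and 903 CPM at week 4 in S-phase cells with zoledronate and magnesium, against 149 and 575 CPM with zoledronate (1.03 and 0.65), and in other cells ratios of -0.60 and 0.62, with opposite signs in the 2 classes at week 12. Fos was higher with added magnesium (0.81 and 1.28) and with added CGRP (1.0 and 1.45), over the same zoledronate libraries. In other cells Fos had ratios of 1.18 and 1.07 with magnesium, and 1.07 and 1.12 with CGRP. Igf1 had -0.31 and -1.60 in other cells with magnesium. Genes at least 1.5-fold apart in S-phase cells with magnesium numbered 218 at week 12 and 22 at week 4. Of these, 213 and 22 differed the same way in other cells by any amount, and 139 and 10 by at least 1.5-fold.

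**Figure D5:**
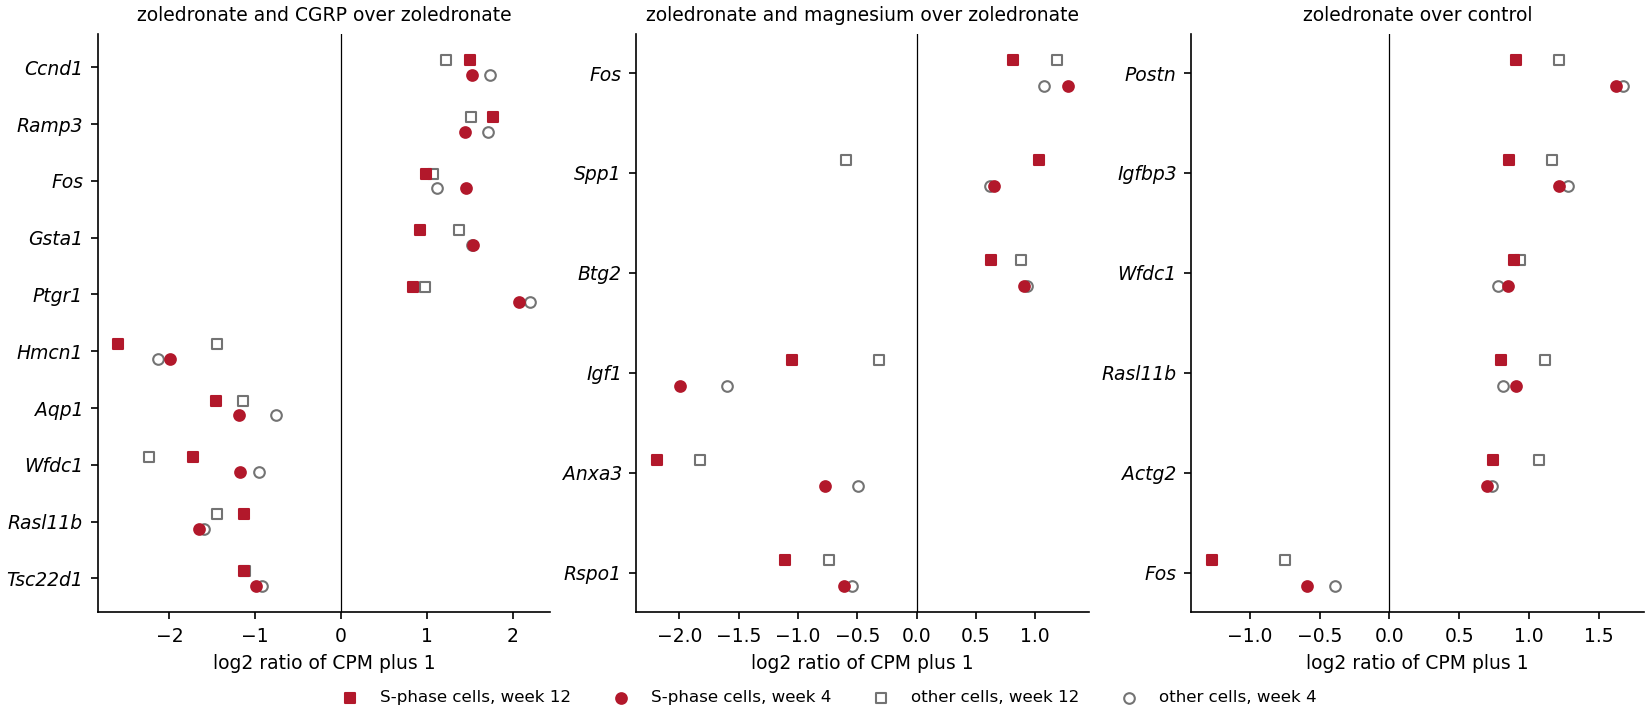
Log2 ratio of CPM plus 1 (x axis) between libraries of a week, for the genes named by rule in each treatment comparison, in S-phase cells (filled) and other cells (open) at week 12 (squares) and week 4 (circles); no error is drawn because each group is 1 library. Postn lay at 0.91 and 1.63 for zoledronate over control in S-phase cells.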

How the data were processed

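Whole-number UMI counts per gene and cell were deposited by the authors in 1 table per library, and STAR and the build Rnor_6.0 are named in the submitters' processing notes. As the tables show, every gene was seen in at least 5 cells, every cell held at least 500 genes, and no mitochondrial gene is listed. All sample columns were used (0 left out). The labels give about 10000 cells loaded per library.

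Counts were summed over the cells of a class in each library. They were tested with edgeR 4.0.16 in R 4.3.3 (quasi-likelihood F test, low counts filtered, TMM factors, library as a block) and Benjamini-Hochberg adjustment over all genes tested. DESeq2 1.42.0, RLE factors, no filter, thinning, other thresholds and leaving out each library were alternatives. Cells were handled in Python 3.11.15 with numpy 2.4.6, pandas 2.3.3 and scipy 1.17.1. No doublet caller was run, and an alternative left out the 5% of cells with most UMIs. Intervals cover counting error only. On simulated counts with 200 genes changed 2-fold, the tests recovered 91.0% (S-phase against other cells, 10476 genes), 97.5% (against mitotic cells, 9099 genes) and 79.0% (weeks, 10476 genes).

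The genes named were, per direction and contrast between classes, the 12 furthest from 0 in log2 fold change among called genes with the same sign in all 8 libraries and a mean of at least 20 CPM, leaving out the 12 rule genes, and members of the 24 lists, of which some are not reported here. For weeks they were the 5 smallest p in each direction, and between libraries the first 5 in each direction by the smaller of both weeks' log2 ratios. The members and lists were chosen with earlier results of these data known. Promoters are RefSeq's of build GRCr8, matched by symbol, a build other than that of the counts.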

Additional observations from a re-analysis of the deposited data

Results flagged for a closer look

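For 10 genes the difference between S-phase and other cells was not the same at both weeks, by the interaction term of edgeR's quasi-likelihood test with Benjamini-Hochberg adjustment over 10476 genes. Values are log2 differences, S-phase minus other cells, averaged over the 4 libraries of a week.

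Ifi27l2b had a log2 difference of -0.74 at week 12 and -0.21 at week 4 (interaction -0.59 ± 0.0510, adjusted p = 0.000729). Its call held in each of 14 alternatives, which left out each library in turn or changed a setting. The other 9 lost their call in 5 to 11 of the 14.

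Of those with a higher difference at week 12, Pttg1 (securin) had a log2 difference of 0.65 at week 12 and -0.83 at week 4 (interaction 1.38 ± 0.230, adjusted p = 0.0499). Rbmx, an RNA-binding protein, had a log2 difference of 0.52 at week 12 and 0.03 at week 4 (interaction 0.44 ± 0.0740, adjusted p = 0.0499). Msn (moesin), which links actin to the membrane, had a log2 difference of 0.58 at week 12 and 0.08 at week 4 (interaction 0.43 ± 0.0745, adjusted p = 0.0499). Hsp90ab1, a chaperone, had a log2 difference of 0.40 at week 12 and 0.09 at week 4 (interaction 0.24 ± 0.0431, adjusted p = 0.0499). Ddx39a, an RNA helicase, had a log2 difference of 0.56 at week 12 and 0.11 at week 4 (interaction 0.38 ± 0.0680, adjusted p = 0.0499).

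Of those with a lower difference at week 12, Pappa1 had a log2 difference of -0.87 at week 12 and -0.12 at week 4 (interaction -0.90 ± 0.118, adjusted p = 0.0312). Fam198b had a log2 difference of -0.37 at week 12 and -0.08 at week 4 (interaction -0.36 ± 0.0490, adjusted p = 0.0312). Palmd (palmdelphin) had a log2 difference of -0.58 at week 12 and -0.04 at week 4 (interaction -0.62 ± 0.090, adjusted p = 0.0447). G0s2, an inhibitor of lipolysis, had a log2 difference of -1.83 at week 12 and -0.99 at week 4 (interaction -1.08 ± 0.166, adjusted p = 0.0499).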

How the results depend on the processing

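None of the genes named by rule reversed in any alternative, and other called genes were not checked for it. The counts of genes higher in S-phase than in other cells, and higher or lower than in mitotic cells, stayed within 1.5 times of their values in every alternative. The labels give no numbered replicates that pair samples, and each library holds both classes, so the library was the block. Without the replicate block, 251 genes were lower than in other cells, against 417 with it, and 630 were when mitotic cells were left out of the others. Without the block 5 of 24 named genes lost their call against other cells (G0s2, S100b, C1qtnf3, Thbs2 and Mylk) and 2 of 24 against mitotic cells (Lce1m and Ccl2).

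The week difference was least stable. Its higher genes of at least 1.5-fold numbered 2, but 5 with DESeq2, 4 with no filter, 1 without the 5% of cells with most UMIs, 12 at 0.15%, and 0 to 97 when each library was left out. Its lower genes numbered 7, but 20 at 0.15%, and 0 to 35 when each library was left out.

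For the log2 ratios of shares, the 0.15% threshold gave -1.56 for zoledronate over control at week 12, 0.13 and 0.24 for CGRP over zoledronate at weeks 12 and 4, -0.27 for magnesium over zoledronate at week 4, and -0.36 for week 12 over week 4 with magnesium. Leaving out Pcna gave 0.95 for CGRP over zoledronate at week 12, and for week 12 over week 4 -1.15 with CGRP, -0.33 with magnesium and 0.18 in the control. With no threshold on mitotic genes, zoledronate over control at week 12 was -2.51 and the control between weeks 0.29. Thinning gave 0.90 for CGRP at week 12, and a minimum of 10000 UMIs -1.14 for CGRP between weeks. The cause of these shifts was not tested. Genes at least 1.5-fold higher with zoledronate than in the control at both weeks were 12 after thinning, against 7, and the lower ones 0 without the 5% of cells with most UMIs, against 1.

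Limits: each group is 1 library, the cells were cultured for a day, and the class is cut from a continuous score.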

Other observations

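Cells at or over both thresholds, kept out of the S-phase class, numbered 189 at week 12 and 507 at week 4 with zoledronate and CGRP, 159 and 268 with zoledronate and magnesium, 96 and 270 with zoledronate, and 682 and 378 in the control. Among S-phase cells, 52 of 2921 had no UMI of the 7 mitotic genes. Lce1m, which is in no list, had 12.0, 76.3 and 181 CPM in S-phase cells, against 2.43, 20.5 and 67.1 CPM in mitotic cells (1.87 ± 0.137), with overlapping ranges.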
